A study of Mus musculus with 8 samples.

Results

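The sciatic nerve of wild-type (WT) mice was described by the absolute level of its transcripts at an age of 30 days after birth, when peripheral myelination is well under way. Its members are the 2 WT samples of the 8 in the series, chosen by genotype label and not by any measured value. Both WT samples came from F1 mice of C57BL/6 and FVB/N, and the labels give them neither a transgene nor a mutation. The other 6 samples carry Q215X/+, HA-NRG1 type III/+ or both and are not compared here. RNA was poly A selected, made into TruSeq libraries and read on a HiSeq2500, per the labels. Levels are FPKM (fragments scaled to transcript length and library size), so genes can be compared with each other per unit of length. Of the 23356 genes in the deposited table, 22596 are described. The 760 symbols that start with Mir or Snor were left out, because FPKM of very short genes is not reliable, and they held 3.92% and 5.51% of the deposited total. The table names the WT libraries by the endings 0 and 1, and values below are given in that order, library 0 first. The labels do not say that the libraries came from separate animals, so the spread between them may be technical.

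A peripheral nerve holds axons whose cell bodies lie outside it, in the spinal cord and in ganglia. Each large axon is wrapped by a row of myelinating Schwann cells, whose plasma membrane compacts into the lipid-rich myelin sheath, and groups of small axons are held by non-myelinating (Remak) Schwann cells. Fibroblasts, vessels, macrophages and mast cells lie between them. A perineurial cell sheath encloses each fascicle, and the epineurium with its fat lies outside it. The 7 markers taken for these cells were Pmp22, Mbp and Prx for myelinating Schwann cells, Scn7a for non-myelinating ones, Pecam1 for endothelium, Lum for fibroblasts and Cd68 for macrophages.

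All 7 markers were present in both libraries. Pmp22 stood at 20522 and 19234 FPKM and Mbp at 16688 and 18230.5. Prx followed at 1485 and 1454, rank 13. Lum stood at 398 and 418 FPKM, rank 133. Scn7a was at 77.5 and 96.4, rank 791. Pecam1 and Cd68 were lower, at 25.4 and 28.9 FPKM (rank 2865) and 19.4 and 14.1 FPKM (rank 4357). The order of the markers was the same in both libraries, and the library ranges of different markers did not overlap. In bulk RNA of a whole nerve, fewer cells of a type and less RNA per cell cannot be told apart, so this order is one of transcript levels and not of cells.

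**Figure D1:**
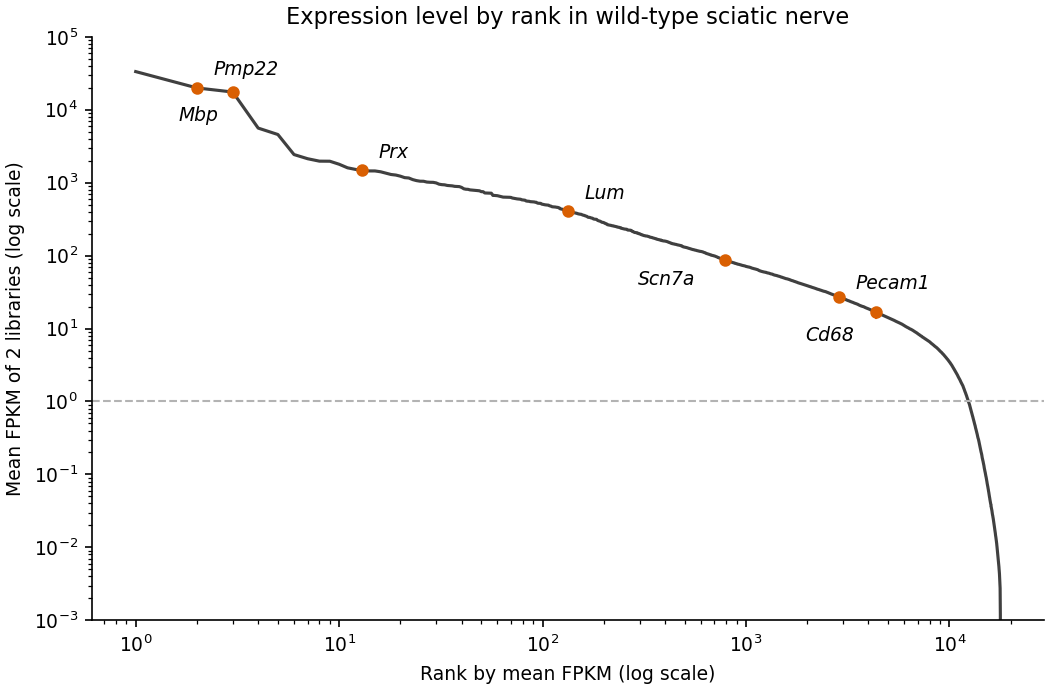
Mean FPKM of the 2 WT libraries (log scale) against rank (log scale), with the 7 markers as points and the dashed line at 1 FPKM. Of the 7 marker points those of Pmp22 and Mbp stand highest, and the curve crosses the line after 12398 genes.

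Few genes held much of the total. Summed FPKM was 445551 and 496055. The 10 most abundant genes held 20.7% and 18.2% of it and the first 100 genes 34.5% and 35%. To reach 50% of the total took 387 genes in library 0 and 334 in library 1. At the other end, a mean of 1 FPKM or more was reached by 12398 genes (54.9%), 12186 of them in both libraries, with a median of 10.4 FPKM. A mean of at least 100 FPKM was reached by 689 genes and 1000 FPKM by 29. Another 4760 genes (21.1%) were listed at 0 in both libraries. Protein-coding genes, by the GENCODE gene type, made up 98.7% and 98.4% of the total, and long non-coding genes 0.578% and 0.607%. Among the latter Neat1, a scaffold of nuclear paraspeckles, stood at 336 and 403 FPKM, the imprinted H19 at 202 and 163 and Xist, the RNA of the inactive X, at 70.5 and 76.3; these 3 were chosen after their values were seen.

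Compact myelin genes led the tissue. Pmp22, a tetraspan membrane protein of compact myelin whose gene dosage is disease-causing in both directions, stood as given above. Mbp, the cytoplasmic protein that draws the inner membrane faces together, was close to Pmp22, with a Pmp22 to Mbp ratio of 1.23 and 1.06. Below these came a gap: Sparc, the next gene, was 3.08 and 3.16 times under Mbp. Pmp22 stood above Mbp in each library, but Pmp22 was lower in library 1 and Mbp lower in library 0. Further members of the compact list were Mal, a raft protein, at 1376 and 1519 FPKM, Pmp2, a fatty acid binding protein of myelin, at 1062 and 957 and Pllp (plasmolipin) at 427 and 526. All 7 measured members were above 100 FPKM, and together they held 17.5% and 14.2% of the total.

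Non-compact myelin, the cytoplasm-filled channels, loops and outer membrane of the sheath, was represented by 18 genes, of which 18 were above 1 FPKM and 11 above 100. Prx (periaxin), the scaffold that links the outer Schwann cell membrane to its dystroglycan complex, led the list. Cadm4, an adhesion molecule that faces the axon, stood at 914 and 904 FPKM. Cnp, a phosphodiesterase of myelin cytoplasm, was at 844 and 963. Ncmap, a membrane protein of non-compact myelin, was at 475 and 673, Drp2, the periaxin partner, at 510.0 and 606, and Cldn19, the claudin of Schwann cell tight junctions, at 519.9 and 488. Of these 6, Ncmap differed most between libraries and was 1.42 times higher in library 1. Compact and non-compact lists together held 18.9% and 15.5% of the total (mean 17.2% ± 2.41, SD, n = 2). Ribosomal protein genes held a larger share of library 1, 9.06% beside 5.97%, and their part in its lower myelin share was not tested.

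**Figure D2:**
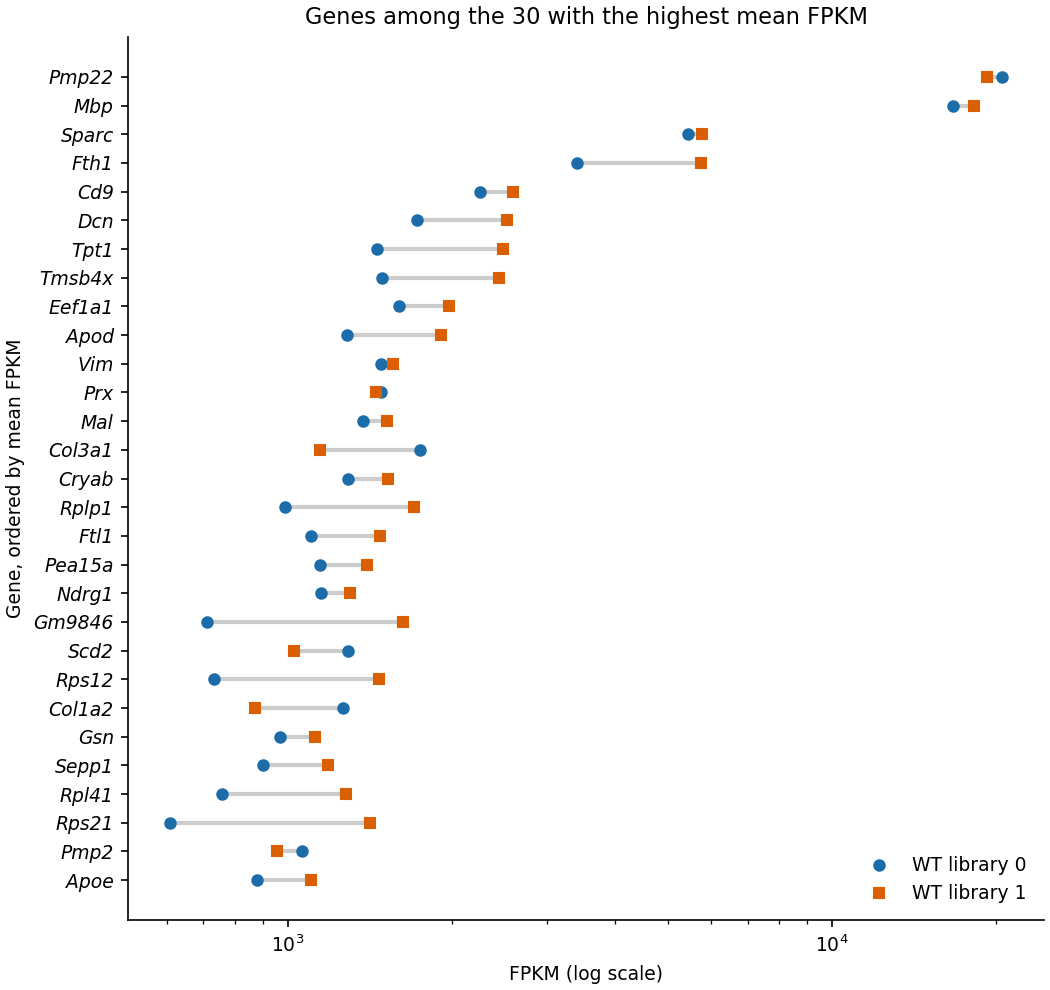
FPKM (log scale) of genes among the 30 with the highest mean, in WT library 0 (circles) and library 1 (squares), with a bar joining the libraries. Pmp22 and Mbp stand apart on the right in both libraries, while ribosomal protein genes such as Rps21 and Rps12 show the wide bars.

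RefSeq sequences before the transcription starts of 2 of these myelin genes are shown because Pmp22 has 4 starts in the table that a gene-level FPKM adds up, while Prx has 1 in the table. Each run is the 250 bases before a start on GRCm38.p6 (the assembly that mm10 names), on the gene's strand, 5′ to 3′. Capitals mark a match, on either strand, to the TATA box TATAAA, to the pentamer CCAAT known as the CAAT box, or to the GC box GGGCGG.
Pmp22 first start, chr11:63128732-63128981, plus strand: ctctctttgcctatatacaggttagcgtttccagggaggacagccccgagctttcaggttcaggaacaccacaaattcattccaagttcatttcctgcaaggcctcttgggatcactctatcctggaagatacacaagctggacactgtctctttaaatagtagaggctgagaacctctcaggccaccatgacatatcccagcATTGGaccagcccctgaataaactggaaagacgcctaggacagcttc
Pmp22 second start, chr11:63131207-63131456, plus strand: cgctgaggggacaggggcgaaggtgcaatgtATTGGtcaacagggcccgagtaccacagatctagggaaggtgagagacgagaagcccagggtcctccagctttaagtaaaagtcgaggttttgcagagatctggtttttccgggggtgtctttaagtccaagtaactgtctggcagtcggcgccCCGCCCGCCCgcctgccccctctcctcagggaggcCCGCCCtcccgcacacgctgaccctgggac
Prx, chr7:27499074-27499323, plus strand: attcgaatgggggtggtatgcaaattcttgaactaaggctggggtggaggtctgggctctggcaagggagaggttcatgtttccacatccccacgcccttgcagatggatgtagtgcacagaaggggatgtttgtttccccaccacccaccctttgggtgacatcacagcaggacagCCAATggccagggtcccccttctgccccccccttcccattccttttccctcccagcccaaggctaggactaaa
The first Pmp22 run holds CCAAT beginning 47 bases before the start. The second holds CCAAT 219 bases before it and GGGCGG at 65, 61 and 30 bases before it. Prx holds CCAAT 73 bases before its start. TATAAA is in none of the 3 runs. Of the other Pmp22 windows, not shown, the third holds none of these motifs and the fourth holds GGGCGG at 153, 148 and 17 bases before its start. Of all 32851 such windows in the RefSeq table, 12.4% held TATAAA, 33.8% CCAAT and 32.7% GGGCGG. How much each Pmp22 start gave to the 20522 and 19234 FPKM was not analysed here. In the annotation Pmp22 spans bases 63128982 to 63159547 of chromosome 11 and Prx bases 27499305 to 27520041 of chromosome 7. The Prx run ends at base 27499323, inside this span, so the start used for the run lies downstream of the span's first base.

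The rest of the 30 most abundant genes were mainly matrix, iron, translation and cytoskeletal genes. Sparc, a collagen-binding matrix glycoprotein, was next after Mbp at 5427 and 5765 FPKM. Fth1, the ferritin heavy chain, stood at 3407 and 5731 and Ftl1, the light chain, at 1106 and 1481. Cd9, a tetraspanin of Schwann cell membranes, was at 2259 and 2596. Dcn, the small proteoglycan decorin, was at 1726 and 2529.7, and the collagen chains Col3a1 and Col1a2 were at 1749.7 and 1145 for Col3a1, and 1261 and 872 for Col1a2. The collagen genes stood lower in library 1 and Dcn and Fth1 higher there. The lipid carriers Apod, at 1284 and 1909, and Apoe, at 879.5 and 1102, were in the same range. So were Ndrg1, at 1153 and 1300.2, whose loss causes a demyelinating neuropathy, and the small heat shock protein gene Cryab, at 1288 and 1529. The desaturase Scd2 was at 1288 and 1028, and Sepp1, the plasma selenium carrier, at 902 and 1188. Among genes of general function Tpt1 stood at 1457 and 2485, Tmsb4x (an actin-binding thymosin) at 1488 and 2445, Eef1a1 (a translation elongation factor) at 1599 and 1976, Vim (vimentin) at 1482 and 1560.0, Gsn (gelsolin) at 969.7 and 1124 and Pea15a at 1145 and 1397. Rplp1, Rps12, Rpl41 and Rps21 are ribosomal protein genes. Gm9846 (Rps27rt in RefSeq), of the protein-coding type, was at 711 and 1632. It is not in the ribosomal protein list, whose share is given below. Of the 30 highest genes of each library, 22 were shared.

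Transcripts of the myelination factors stood below those of each compact myelin gene. Some non-compact myelin genes, such as Mag at 192 and 155 FPKM, were however below Sox10. Sox10, the factor on which Schwann cell identity rests, stood at 207 and 197 FPKM and was the only one of 12 myelination factors above 100. Egr2, the master factor of peripheral myelination, was at 71.9 and 49.3 and was lower in library 1. Wwtr1 and Yap1, the co-activators of Hippo signalling, were at 45.8 and 48.4 for Wwtr1, and 41.4 and 39.6 for Yap1, and Zeb2, a repressor of differentiation inhibitors, at 38.9 and 37.6. Nab2, the co-factor that Egr2 binds, was at 34.3 and 29.9, and Pou3f1, the promyelinating factor that precedes Egr2, at 22.2 and 16.3. All 12 were above 1 FPKM in the mean, and 10 were above 10. Of the wider Schwann cell list all 11 genes were above 1 FPKM. S100b, the calcium-binding protein used to stain Schwann cells, was at 356 and 626, Art3 at 168 and 223, Dhh, the hedgehog ligand that Schwann cells send to the perineurium, at 172 and 162 and the cadherin Cdh19 at 73.5 and 90.6. Of the genes named in this list S100b differed most between libraries.

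Non-myelinating Schwann cell genes were present at a lower level. Scn7a, a sodium channel family member of these cells, was the highest of 8. Ngfr, the low-affinity neurotrophin receptor, stood at 29.2 and 23.8 FPKM, Ncam1 at 18.3 and 15.8, Cdh2 (N-cadherin) at 13.8 and 17.8, Chl1 at 12.2 and 13.4 and L1cam at 12.6 and 10.5; the latter 4 are adhesion molecules. Gfap, an intermediate filament of these cells, was at 2.22 and 4.30 and Gfra3, an artemin co-receptor, at 2.39 and 1.80. The list's median was 14.3 FPKM, with 8 of 8 above 1 FPKM. Prx was 19.2 and 15.1 times above Scn7a.

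Genes of the repair and immature Schwann cell states were low. Of 14 such genes 5 reached 1 FPKM, with a list median of 0.222 FPKM beside 1.94 over all genes described. These 5 were Ngfr, given above, Jun, known as the driver of the repair programme, at 18.7 and 15.6, Sox2, which holds back differentiation, at 5.17 and 4.22, Gap43, a growth-associated protein, at 3.42 and 4.21 and the cytokine Lif at 3.17 and 2.68. Jun stood at 0.261 and 0.316 times the level of Egr2. The secreted signals Shh (0.134 and 0.142), Gdnf (0.0413 and 0.0585), Bdnf (0.0411 and 0.0406) and Artn (0.0983 and 0.0788) were all under 1 FPKM in each library, and Olig1 was at 0.00986 and 0. Of 10 cell cycle genes 5 reached 1 FPKM. Cdc20, an activator of mitotic exit, was the highest at 2.92 and 2.80, and Mki67, the proliferation antigen, was at 1.39 and 0.633. All 5 of these cell cycle genes were lower in library 1, as were 5612 of all 12398 genes that averaged 1 FPKM or more. Mki67 and Top2a, the latter at 1.93 and 0.812, averaged 1 FPKM only through library 0, so their direction was fixed by that filter.

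Genes of lipid synthesis, which supplies the membrane of the sheath, were high. All 20 measured genes of cholesterol synthesis were above 10 FPKM, 8 of them above 100, and the list held 0.736% and 0.586% of the total. Hmgcs1, the synthase that opens the pathway, stood at 935 and 844 FPKM. Sc4mol, a sterol demethylase, was at 303 and 327, Fdps, which makes farnesyl diphosphate, at 304 and 291, and Cyp51, the lanosterol demethylase, at 134 and 114. In 17 of the 20 genes library 1 was the lower one, beside 5612 of all 12398 genes that averaged 1 FPKM or more. Of 18 fatty acid and sphingolipid genes 11 were above 100 FPKM. Ugt8a, which makes the galactolipids of myelin, was at 817 and 831, Cers2, the ceramide synthase for very long chains, at 488 and 495, Fa2h, which hydroxylates them, at 371 and 374, and Elovl1, a chain elongase, at 337 and 329. Those 4 differed by less than 1.1-fold between libraries, whereas Scd1, a desaturase also abundant in fat, was at 345 and 210.4.

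Node, paranode and juxtaparanode genes differed widely in level. Gldn, a Schwann cell ligand that gathers nodes, stood at 81.9 and 66.9 FPKM and Nfasc, whose glial form sits at the paranode, at 62.6 and 52.4. The spectrins Sptbn1 and Sptan1, which are also general cytoskeleton genes, were highest at 234 and 213 for Sptbn1, and 126 and 116 for Sptan1. Cntnap1 and Cntn1, the axonal side of the paranodal junction, were at 1.86 and 1.59 for Cntnap1, and 2.99 and 2.80 for Cntn1, and Scn8a, the sodium channel of mature nodes, at 1.26 and 1.40. Kcna1 and Kcna2, potassium channels known for their place on the axon next to the paranode, were well above these axonal genes, at 74.2 and 80.3 FPKM for Kcna1, and 51 and 65.5 for Kcna2. Kcna1 was 39.9 and 50.4 times above Cntnap1 although the proteins of both are found on the axon. Cntnap2, the juxtaparanodal partner of these channels, was at 0.0325 and 0.0473 and Cntn2 at 0.0126 and 0.0103. In total 12 of 16 genes of the list reached 1 FPKM.

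The listed axonal genes were mostly at a low level, and the listed genes of neuronal cell bodies mostly near 0. Whether the transcripts of the axonal genes came from axons cannot be told from bulk RNA. Of 15 axonal genes 11 reached 1 FPKM, with a median of 3.63 FPKM. Uchl1, an abundant neuronal hydrolase, was at 38.2 and 53.7, Map1b at 19.2 and 14.5, Thy1 at 17.3 and 11.4 and Stmn2 at 9.45 and 14.3, and the neurofilament genes Nefl and Nefh were at 4.57 and 8.25 for Nefl, and 4.33 and 6.39 for Nefh. Thy1 and Map1b are also made by other cells. Library 1 was higher in 8 of the 11, but not in Map1b, Thy1 and Tubb3, which stood at 2.47 and 2.04. Over all 12398 genes that averaged 1 FPKM or more library 1 was higher in 54.7%, and counts of direction are to be read against that share. Of 8 genes of neuronal somata only Syn1, a synaptic vesicle protein, reached 1 FPKM, at 1.80 and 1.73. The sensory neuron factors Pou4f1 and Isl1 were at 0.0707 and 0.0699 for Pou4f1, and 0.0167 and 0.0251 for Isl1, the nociceptor gene Trpv1 at 0.655 and 0.587, the neuronal nuclear protein Rbfox3 at 0.0280 and 0.0840, and the transmitter transporters Slc18a3 and Slc17a6 at 0.0264 and 0 for Slc18a3, and 0 and 0.0188 for Slc17a6.

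In neuregulin signalling, by which axons instruct Schwann cells, transcripts of the receptor pair were well above those of the ligand genes. The cell bodies of the axons lie outside the nerve, so ligand RNA that stays in them is not measured here. Erbb3 and Erbb2, the receptor pair of Schwann cells, stood at 46 and 36.7 FPKM for Erbb3, and 20.6 and 19.1 for Erbb2, a ratio of 2.23 and 1.93. The sheddases Adam10, Adam17 and Bace1, which cut neuregulin, were at 283 and 280.1 for Adam10, 33.3 and 34.2 for Adam17, and 23 and 21.8 for Bace1. Egfr was at 8.90 and 9.01 and Erbb4 at 3.74 and 3.02. The ligand gene Nrg1 was at 0.204 and 0.164, so Erbb3 was 226 and 224 times above it. Nrg2 was at 0.156 and 0.258, Nrg3 was listed at 0 in both libraries and Nrg4 was at 1.70 and 0.520.

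Schwann cells rest on a basal lamina of laminin, which they bind through dystroglycan and integrins. Lamb1 and Lamc1, chains of the main Schwann cell laminins, were at 236 and 189 FPKM for Lamb1, and 196 and 136 for Lamc1, Lama4 at 84.7 and 61.8 and Lama2, the alpha chain lost in a congenital muscular dystrophy with neuropathy, at 83.3 and 54. Lama1, the alpha chain of early basement membranes, was at 0.0822 and 0.0682. On the receptor side Dag1 (dystroglycan) stood at 371 and 288, Itga6 at 214.8 and 165, Itgb1 at 191 and 196, Itgb4 at 89 and 93.4, Itga7 at 60.8 and 60.8, Itga3 at 7.62 and 7.83 and Itga2 at 3.18 and 3.34, so 7 of 7 were above 1 FPKM. The 44 collagen genes, of fibrillar, basement membrane and other types, made up 1.43% and 0.899% of the total, and 33 of them averaged 1 FPKM or more. Of those 33, 29 were lower in library 1, beside 5612 of all 12398 genes that averaged 1 FPKM or more. The longest transcripts of the 33 had a median of 6048 bases. Among all genes with 6000 to 8000 bases, 23.6% were higher in library 1.

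Fibroblast genes were the highest of the other cell types, with 13 of 13 above 10 FPKM and a median of 408 FPKM. They included Dcn, Col3a1, Col1a2 and Gsn, given above, Col1a1 at 986 and 577 and the complement inhibitor Serping1 at 411 and 423. Lum, the marker, is a small leucine-rich proteoglycan like Dcn and like Ogn, which stood at 725 and 1106. Of 6 genes tied to endoneurial fibroblasts 5 reached 1 FPKM, led by the transporter gene Abca9 at 34.6 and 28.2, then Osr2 at 10.3 and 11.7, Meox1 at 6.06 and 7.53, Sox9 at 5.17 and 6.00 and Etv1 at 4.81 and 4.74, while Wif1 was at 0.114 and 0.105. Of 7 genes tied to epineurial fibroblasts 7 did, led by Clec3b at 117 and 148 and followed by Ly6c1 at 39.4 and 62.5, Pi16 at 39.6 and 33.2, Sfrp2 at 18.9 and 11.9, Pcolce2 at 9.88 and 9.24, Dpp4 at 7.24 and 7.20 and Comp at 1.84 and 2.94.

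The blood-nerve barrier was represented on both its faces. Slc2a1, the glucose transporter of barrier endothelium and perineurium, stood at 119 and 129.8 FPKM. The other perineurial genes were Itgb4, given above, Lypd2 at 51.9 and 79.1, the tight junction gene Cldn1 at 57.4 and 69.1, Msln at 20.9 and 20.5, Moxd1 at 11.4 and 9.40, Ntng1 at 8.66 and 9.69 and Tenm2 at 5.73 and 5.90. On the endothelial face Mfsd2a, a lipid transporter of barrier vessels, was at 73.3 and 64.4, the junction gene Cldn5 at 51.7 and 79.9, Tjp1 at 43.9 and 39.8, the efflux pumps Abcg2 and Abcb1a at 19.8 and 25.1 for Abcg2, and 15.8 and 19.4 for Abcb1a, Slco1a4 at 10.3 and 9.92 and Ocln (occludin) at 2.40 and 2.46. All 15 endothelial genes were above 1 FPKM, with a median of 18.8 FPKM. Egfl7, secreted by endothelium, led them at 68.9 and 94.1, and Cdh5, the endothelial cadherin, and Esam were at 26.2 and 25.7 for Cdh5, and 22.7 and 24.2 for Esam, near Pecam1. Plvap, a protein of fenestrated vessels, was at 19.6 and 22.4. Pericyte and smooth muscle genes were led by Tagln at 157 and 242, with Mcam at 57 and 50.2, Rgs5 at 46.1 and 42.1, Acta2 at 36.2 and 35 and Pdgfrb at 36.2 and 31.1. Of the lymphatic genes Pdpn, which perineurial cells and fibroblasts also make, was at 23.5 and 25.3 and Lyve1, also made by macrophages, at 12.3 and 14.7, while Prox1, the factor that defines lymphatic endothelium, was at 0.0944 and 0.152 and Flt4 at 0.716 and 0.910.

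Resident immune cells were represented by macrophages and mast cells, and lymphocytes and neutrophils hardly at all. All 17 macrophage genes were above 1 FPKM, with a median of 16.7 FPKM. Lyz2 (lysozyme) led at 130.1 and 153, and the complement genes C1qa, C1qc and C1qb stood at 89.5 and 110.3 for C1qa, 80.7 and 94 for C1qc, and 73.4 and 91.1 for C1qb. Csf1r, the growth factor receptor of macrophages, was at 41.6 and 30.4, and Mrc1, a mannose receptor of tissue macrophages, at 26.4 and 19.2. Csf1r, Mrc1 and Cd68 were lower in library 1 and the C1q genes and Lyz2 higher. Antigen presentation genes were led by Cd74 at 120.4 and 142, with H2-Aa at 45.8 and 64, H2-Ab1 at 29.7 and 41.9 and H2-Eb1 at 11.3 and 16.2, whereas Ciita, their transactivator, was at 0.595 and 0.454. The mast cell proteases Mcpt4, Cma1, Tpsb2 and Cpa3 stood at 8.52 and 9.14 FPKM for Mcpt4, 7.97 and 8.28 for Cma1, 7.52 and 8.25 for Tpsb2, and 6.19 and 7.23 for Cpa3, while the receptor genes Kit, Fcer1a and Ms4a2 were at 0.944 and 1.52 for Kit, 0.208 and 0.289 for Fcer1a, and 0.0991 and 0.107 for Ms4a2 and Hdc, which makes histamine, at 0.563 and 0.491. None of 9 lymphocyte genes reached 1 FPKM: Cd3e was at 0.0468 and 0.0159, Cd8a at 0.0669 and 0.0198 and Ms4a1 at 0 in both. The neutrophil genes S100a8 and S100a9 were at 0.720 and 1.76 for S100a8, and 0.689 and 1.49 for S100a9, and Camp, Mpo and Elane at 0.0926 and 0.416 for Camp, 0.0166 and 0.0497 for Mpo, and 0.0528 and 0 for Elane.

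**Figure D3:**
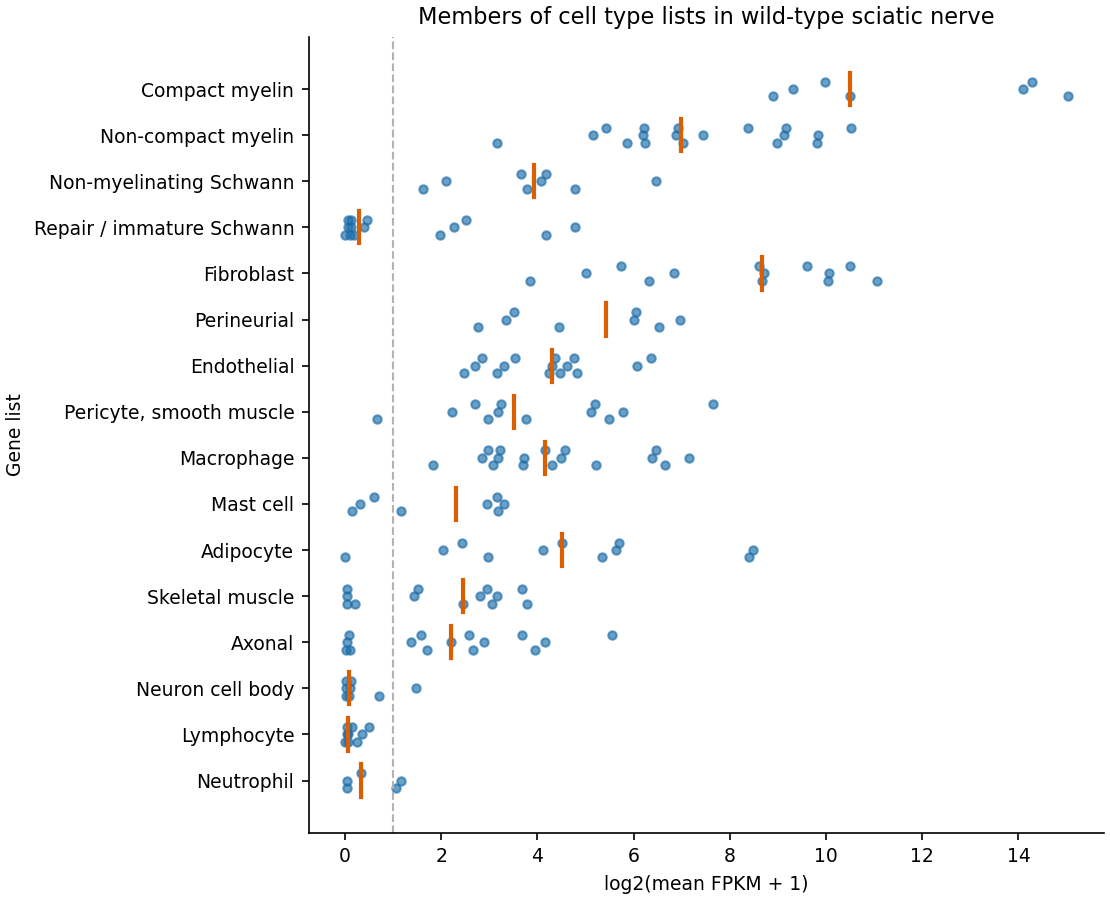
Each point is a gene of a cell type list, placed by log2(mean FPKM + 1) over the 2 WT libraries; the upright bars are list medians and the dashed line marks 1 FPKM. Compact myelin and fibroblast lists reach farthest right, and the neuron cell body and lymphocyte lists cluster at the left edge.

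Genes of fat, skeletal muscle and blood were also measured, and which tissue their transcripts came from was not tested. Fat cell genes were high: Fabp4, the fatty acid binding protein of adipocytes, stood at 426 and 291 FPKM, Cfd (adipsin) at 362 and 306, Adipoq (adiponectin) at 62.2 and 39.9, Lpl at 57.8 and 40.0, Retn (resistin) at 45.5 and 33.5 and Cidec, a lipid droplet protein, at 31.6 and 11.8. Ucp1, the marker of brown fat, was listed at 0 in both libraries. All 10 adipocyte genes at 1 FPKM or more were lower in library 1, 3 of them by more than 2-fold, and the list's sum was 0.231% and 0.150% of the total. Skeletal muscle genes were lower, led by Mylpf at 19.9 and 5.52, Tnnt3 at 17.8 and 5.86, Tnnc2 at 12.3 and 3.49 and Acta1 at 12 and 2.67. Over the 13 listed muscle genes the sum in library 1 was 0.279 times that in library 0. The mean of 1 FPKM was reached by 9 of the 13, each over 2-fold lower in library 1, but Myh4, at 3.14 and 0.588, and Atp2a1, at 3.003 and 0.418, reached it only through library 0. Of the 4 left out, Neb and Ttn were lower in library 1, whereas the myosin genes Myh1, at 0.0135 and 0.0497, and Myh2, at 0.0133 and 0.0557, were higher there. Globin genes were present in both libraries. The beta globin gene Beta-s (Hbb-bs in RefSeq), not among the listed genes, was the most abundant globin at 676 and 761 FPKM. Hba-a1 and Hbb-b1 stood at 120.2 and 109 for Hba-a1, and 90.3 and 108 for Hbb-b1, and the erythroid enzyme Alas2 at 17.6 and 12.4. Reads of globin copies may be split between them. Central glia, skin and pigment cell genes were mostly near 0. Of their 17 genes 5 reached 1 FPKM, led by Aldh1l1, an astrocyte marker also made elsewhere, at 11 and 12.3 and Krt10 at 2.91 and 3.63. The defining genes of these cells were low, with Olig2, Krt5, Tyr and Mlana listed at 0 in both, Mog at 0.0128 and 0.0390, Aqp4 at 0.00803 and 0.0119 and Epcam at 0.0835 and 0.157.

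Several gene families were dominated by 1 member in the nerve; these families were picked after their values were seen, and the shares describe them only. Pmp22 made up 98.3% and 98.1% of the FPKM of its family of 4, with Emp2 next at 196 and 217. Scn7a made up 98.1% and 98.4% of the sodium channel alpha subunits, which left Scn8a 61.7 and 68.7 times below it. Egr2 made up 92.6% and 90.1% of the Egr family, Sema3b, a secreted semaphorin at 633 and 664 FPKM, 90.2% and 91.9% of the class that holds it, and Cadm4 84.3% and 86.2% of the Cadm genes. Slc2a1 held 82.4% and 85.1% of the glucose transporter family, Sox10 74.0% and 73.6% of the Sox genes, Cldn19 71.9% and 64.1% of the claudins and Pmp2 68.4% and 71.9% of the fatty acid binding proteins. Slc16a1, the lactate carrier through which glia are thought to feed axons, stood at 55.3 and 55.1 and held 68.7% and 66.7% of its family. Connexins had 2 leaders instead: Gjc3 at 125 and 116 and Gjb1, the connexin mutated in X-linked Charcot-Marie-Tooth disease, at 112 and 121. Their order differed between libraries. Gja1, the connexin of many other tissues, was 6.52 and 6.50 times below Gjb1.

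Genes of inherited neuropathy were read as a list of 28, of which 27 reached 1 FPKM and 22 reached 10. The demyelinating disease genes Pmp22, Prx, Ndrg1 and Gjb1 were among its 6 highest members, as was Rab7, an endosomal GTPase, at 155 and 148. Gdap1, a mitochondrial fission gene whose loss causes both axonal and demyelinating disease, was the only member under 1 FPKM, at 0.0785 and 0.0518. The axonal disease gene Nefl, as given above, was under 10 FPKM in both libraries.

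Ribosomal protein genes held 5.97% and 9.06% of the total, with 81 of 84 at 1 FPKM or more and 73 above 100. Rplp1 was highest at 991 and 1703, followed by Rps12 at 731 and 1471, Rpl41 at 757 and 1280.5, Rps21 at 608 and 1415 and Rps29 at 775 and 1130.0. Many of these genes have processed copies in the genome, so their values are uncertain. Nuclear genes of the respiratory chain held 1.89% and 2.42%, led by Cox6a1 at 371 and 558, Cox8a at 390.0 and 529 and Atp5e at 315 and 544. The table used held no gene of the mitochondrial genome under the usual prefix.

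The libraries ranked genes alike, and the differences between them went with transcript length as well as with single gene groups. Among the 12398 genes that averaged 1 FPKM or more, 42.2% were within 1.1-fold on the log2(FPKM + 1) scale and 94.4% within 1.5-fold. Spearman's rho over these genes was 0.983; it is a description across genes, which are not replicates. Past 2-fold, 56 genes (0.452%) were higher in library 1 and 40 (0.323%) higher in library 0. With 1 library against 1 this has no replicate check. The 3 of 10 fat genes past 2-fold in library 0 are to be read against that 0.323%. The same share stands beside the 9 muscle genes, from which nothing is read, since 2 of them passed the mean of 1 FPKM only through the library where they were high.

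Ribosomal protein genes were higher in library 1 in 78 of 81 cases, beside 54.7% of all 12398 genes. Their median log2 difference was 0.71, beside 0.03 over all 12398 genes. Respiratory chain genes were higher in 76 of 78, with a median of 0.46. Collagen genes had a median of −0.23. Transcript length moved with these differences: by the longest GENCODE transcript, available for 99.3% of the genes, the median was 0.46 in the 541 genes of up to 1000 bases, 0.23 from there to 2000 bases, 0.03 between 3000 and 4000 bases and −0.16 in the 686 genes over 8000 bases. Of genes up to 1000 bases 88.5% were higher in library 1, and of those from there to 2000 bases 81.2%. The median longest transcript was 1094 bases for ribosomal protein genes and 1087.5 for respiratory chain genes. Without ribosomal protein genes the shortest class still had a median of 0.45. After the median of the length class was subtracted, ribosomal protein genes had a median of 0.36, respiratory chain genes 0.12 and collagen genes −0.21. The part that length, or what moves with it, plays in the difference was not tested beyond this.

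**Figure D4:**
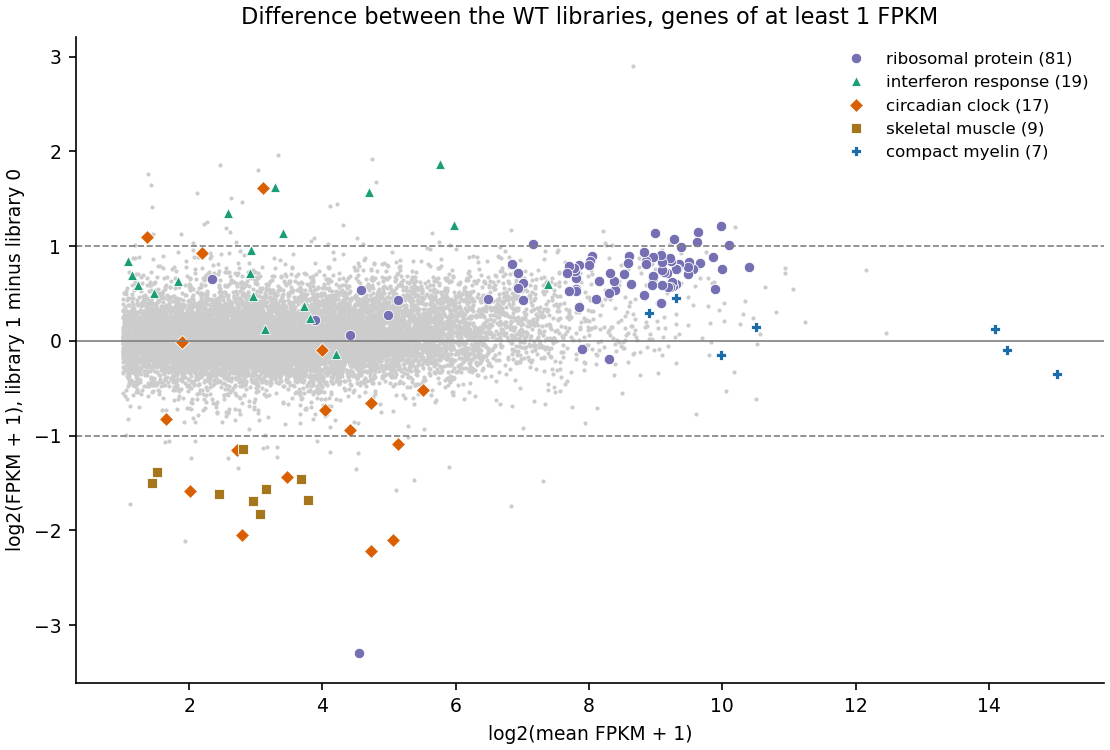
Difference in log2(FPKM + 1), WT library 1 minus library 0, against log2(mean FPKM + 1) for the 12398 genes of at least 1 FPKM (grey), with 5 gene lists in colour and dashed lines at 2-fold. Ribosomal protein genes lie mostly above 0, the 9 muscle genes that averaged 1 FPKM below −1, and compact myelin genes near 0.

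Among genes of at least 10 FPKM, the 8 with the largest difference towards library 0 were, in order, Rps27 at 41.3 and 3.30 FPKM, the clock genes Per1 at 42.8 and 8.40 and Dbp at 53 and 11.6, the kinase gene Sgk1 at 174 and 51.5, Mylpf, Cyp2e1 at 50.6 and 16.3, Tsc22d3 at 232 and 82.8 and Eno1 at 60.2 and 21. Rps27 and Eno1 have close copies in the genome, so their values are uncertain. Sgk1 and Tsc22d3 are known for their induction by glucocorticoids. The 8 towards library 1 were Inmt at 10.2 and 41.4, Ifi27l2a at 22.4 and 84.7, Lars2 at 12.3 and 41.7, Isg15 at 12.1 and 38.1, Rplp2-ps1 at 9.02 and 26.3, Plac8 at 8.41 and 24.2, Bst2 at 36.8 and 87.2 and Cldn22 at 11 and 26.8. Of these Ifi27l2a, Isg15 and Bst2 are induced by interferon. Rn45s, the ribosomal RNA precursor, is outside the naming rule and was chosen after its values were seen; it stood at 94.6 and 712.

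Circadian clock genes differed between the libraries in 2 opposite directions. The list of 17 was drawn up after Per1 and Dbp had been seen to differ, so its counts describe it and support nothing. In the clock, the activators Arntl (BMAL) and Clock or Npas2 drive the Per, Cry and Nr1d genes, whose products then repress the activators or their action, and output genes such as Dbp, so the groups peak at different times of day. The repressor and output genes were lower in library 1: Per2 stood at 5.08 and 1.03 FPKM, Per3 at 15.2 and 4.99, Gm129 (Ciart in RefSeq), a clock repressor, at 10.2 and 1.70, Tef at 47 and 21.5, Hlf at 8.12 and 3.10, Nr1d1 at 52.9 and 36.6 and Nr1d2 at 27.2 and 13.6. The activators Arntl and Npas2 were higher in library 1, at 3.28 and 12.1 for Arntl, and 0.649 and 2.54 for Npas2, as was Nfil3, a repressor that acts against Dbp, at 2.13 and 4.97. Clock itself, at 15.5 and 14.4, and Cry1, at 2.74 and 2.71, were within 1.1-fold between libraries. Past 2-fold, 7 of the 17 were higher in library 0 and 2 higher in library 1, beside 0.323% and 0.452% of all genes. Of these 2, Npas2 averaged 1 FPKM only through library 1, where it was high. The same counts, 7 and 2, were found after the length class median was subtracted. The hour of collection is not in the labels, and its part was not tested.

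**Figure D5:**
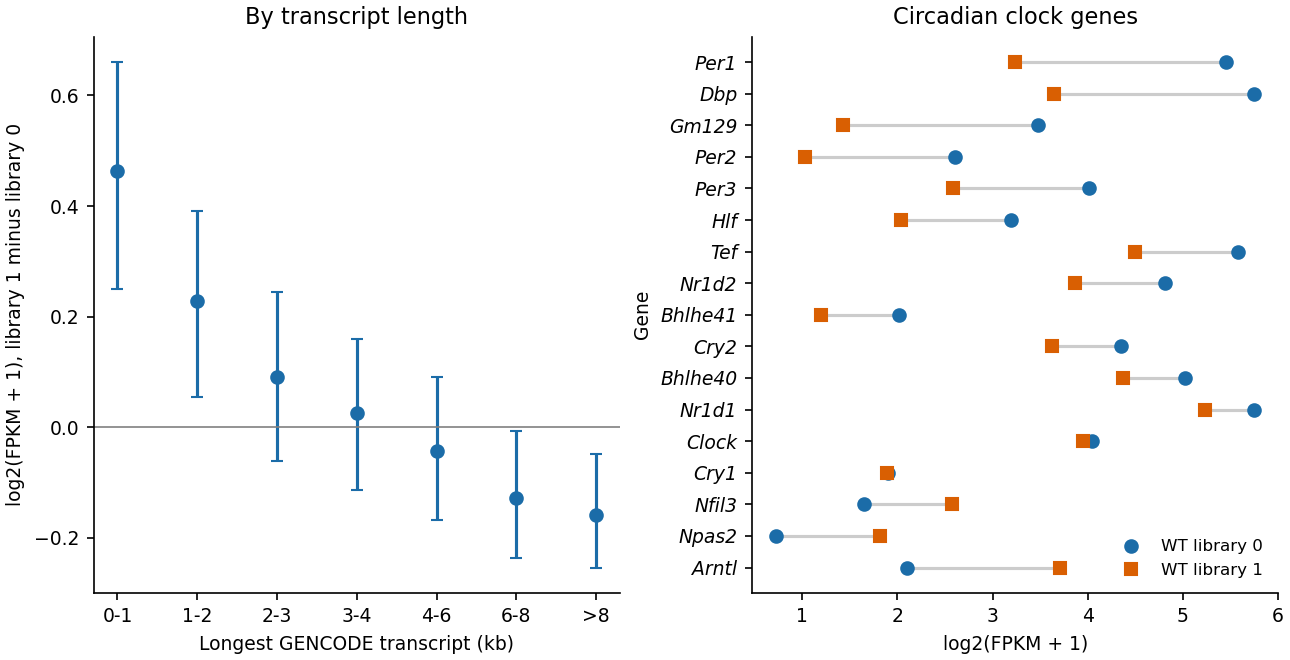
Left, the median difference in log2(FPKM + 1), library 1 minus library 0, by class of longest transcript, with bars from the lower to the upper quartile of genes; right, log2(FPKM + 1) of the 17 clock genes in library 0 (circles) and library 1 (squares). The medians go from 0.46 to −0.16 with length, and Arntl, Npas2 and Nfil3 lie the other way from Per1, Dbp and Gm129.

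CACGTG, the E-box to which the clock activators are known to bind, was searched in the 250 bases before the RefSeq starts of the clock genes. It was found in 6 of 20 windows, in Per1, both starts of Tef, Gm129, Cry1 and Bhlhe41, beside 6.02% of all windows in the table and 9.42% of those of the 1000 most abundant genes. The runs below are the windows with a match among the genes that were over 2-fold lower in library 1, with CACGTG in capitals, from GRCm38.p6.
Per1 first start, chr11:69098699-69098948, plus strand: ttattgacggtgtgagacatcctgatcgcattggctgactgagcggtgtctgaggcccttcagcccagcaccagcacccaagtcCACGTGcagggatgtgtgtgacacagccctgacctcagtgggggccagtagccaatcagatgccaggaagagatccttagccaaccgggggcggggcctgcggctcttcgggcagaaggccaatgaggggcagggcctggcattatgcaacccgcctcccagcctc
Tef first start, chr15:81802423-81802672, plus strand: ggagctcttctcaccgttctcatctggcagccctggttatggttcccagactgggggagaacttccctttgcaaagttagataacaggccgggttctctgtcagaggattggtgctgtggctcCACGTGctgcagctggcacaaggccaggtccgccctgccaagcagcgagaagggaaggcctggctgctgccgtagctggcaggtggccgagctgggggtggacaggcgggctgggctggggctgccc
Gm129, chr3:95882229-95882478, minus strand: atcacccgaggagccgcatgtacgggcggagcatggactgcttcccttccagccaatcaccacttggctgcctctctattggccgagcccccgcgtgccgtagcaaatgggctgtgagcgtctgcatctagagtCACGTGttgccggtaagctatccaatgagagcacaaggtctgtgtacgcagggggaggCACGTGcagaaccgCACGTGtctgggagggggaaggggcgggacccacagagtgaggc
Gm129 holds CACGTG 3 times, beginning 116, 58 and 44 bases before its start. Per1 holds it 166 bases and Tef 127 bases before the start shown. The second start of Tef, not shown, has a match as well. Dbp, Per3 and Hlf have none in this window, which says nothing about sites elsewhere. Per2 and Bhlhe40 were not searched.

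Glucocorticoid and interferon response genes were also listed after single members had been seen to differ. Of 11 glucocorticoid genes 4 were over 2-fold higher in library 0 and 1 in library 1, beside 0.323% and 0.452% of all genes: Ddit4 stood at 84.5 and 33.1 FPKM and Errfi1 at 50.9 and 24.7, whereas Zbtb16 was at 2.23 and 8.19 and Fkbp5, another usual target, at 14 and 15.8. The list thus did not move one way. Of the 20 interferon genes 19 averaged 1 FPKM or more, and 18 of these were higher in library 1, beside 54.7% of all genes. Past 2-fold in library 1 were 6, beside 0.452% of all genes, and 4 after the length class median was subtracted. Ifi44, Oas1a and Mx2 reached the mean of 1 FPKM only through library 1, at 0.872 and 1.82 for Ifi44, 0.689 and 1.74 for Oas1a and 0.509 and 1.71 for Mx2. Among the others were Irf7, the factor that amplifies the response, at 3.80 and 13.8, Ifit3 at 5.66 and 13.7 and Ifit1 at 2.39 and 7.66.

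Promoter composition was set beside expression rank. RefSeq starts were found for 17646 of the 22596 genes. In the windows of the 1000 most abundant genes (771 with a start) the median GC content was 60.0% and the median number of CpG pairs 15.5, GGGCGG was found in 55.6% and TATAAA in 7.94%. In windows of the genes listed at 0 in both libraries (3757 with a start) the values were 43.6%, 2 CpG pairs, 9.48% and 26.4%. Across the next 11 classes of 1000 genes, GGGCGG ran from 50.4% to 65.3% and TATAAA from 4.11% to 7.33%. The GGGCGG share was highest at ranks 5001 to 6000 and was lower in each class after that, down to 50.4% at ranks 11001 to 12000. Over the same ranks it went from 63.0% to 47.9% by library 0 alone and from 63.2% to 49.5% by library 1 alone, though not down at every step. By the mean, the TATAAA share of the top class was above that of each of the 11 classes below it. By library 1 alone it was 7.60%, under the 7.61% at ranks 9001 to 10000 and the 7.85% at ranks 11001 to 12000.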

How the data were processed

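The authors deposited 1 FPKM value per gene and library. The submitters' processing notes name TopHat2 2.0.9, Cufflinks 2.2.0 and mm10. What each did, the annotation and the strand handling were not given in the sources used here. Because data lines carry an empty second field, column names were matched after dropping it. Both WT columns were used and 6 columns of the other genotypes were not.

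FPKM keeps no counts, so no depth or counting error can be stated. Nothing was tested: with 1 group of 2 libraries, levels, ranks and shares are descriptions, and library differences are on the log2(FPKM + 1) scale, which understates low genes. Calculations used Python with pandas 2.3.3 and were tested on simulated data. Transcript lengths and gene types came from GENCODE M21 and promoter windows from RefSeq.

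The gene lists and members were chosen with earlier results of these data known. Named genes were the 7 markers, the 30 most abundant, up to 6 of each list (all of lists of up to 8, and absent members), and the 8 largest library differences in each direction at 10 FPKM or more. The 20 lists of clock, glucocorticoid, interferon and family genes, and some further genes named with them, were added after values were seen. Some genes that the rule would name are not reported here. Members of a list can be made by several cell types.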

Additional observations from a re-analysis of the deposited data

How the results depend on the processing

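Each share and count was recomputed with each library alone, with Mir and Snor symbols kept, with other short RNA left out, with other totals and with other thresholds. Values from single libraries, which themselves set the SD of the pair, were not counted. Of the other 44 values, 34 stayed within that SD or, for counts, within 1.5-fold. Some single-library values did lie beyond the SD. They were the medians of non-myelinating Schwann cells in library 0, those of endothelium and macrophages in library 1, and the promoter shares below in both. The share of the 100 highest genes went from 34.7% to 36.2% with Mir and Snor symbols kept and to 35.4% with ribosomal protein genes left out of the total. A list level taken from the mean of log2(FPKM + 1) in place of the median was 162 FPKM for non-compact myelin, 13.2 for non-myelinating Schwann cells, 16.6 for endothelium, 30.0 for perineurium, 269 for fibroblasts and 19.4 for macrophages. With 1 library alone the medians ran from 13.2 to 14.6 FPKM for non-myelinating Schwann cells, 18.4 to 18.8 for endothelium and 14.1 to 16.6 for macrophages. Ranks from 1 library alone gave GGGCGG in 55.8% to 55.9% and TATAAA in 7.60% to 7.79% of windows of the first 1000 genes, and in 10.5% to 11.1% and 24.9% to 25.8% of those at 0. The 96 genes over 2-fold apart became 154 with a pseudocount of 0.1 and 50 among genes of at least 10 FPKM. Less the median of the length class, an alternative added after the data were seen, 69 genes were past 2-fold, 18 higher in library 1 and 51 in library 0, in place of 56 and 40. With library 1 rescaled by the median ratio of 1.04 the split was 41 and 42. No paired analysis was possible because only 1 group was described. Depth is unknown, so low values carry no counting error here.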

Other observations

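Further gene groups were read in the same libraries, outside the comparisons above and, save the tubulins and immediate early genes, picked after their values were seen. Metallothioneins, which bind zinc and copper, were among the abundant transcripts. Mt3, the member known from brain, stood at 590.1 and 1130.1 FPKM, Mt1 at 594 and 569.8 and Mt2 at 490.4 and 381, so the order of Mt3 and Mt1 differed between the libraries. Of 17 S100 genes 12 reached 1 FPKM, and S100a6 at 741 and 1136 FPKM stood above S100b. S100a10 was at 316 and 474 and S100a4, a fibroblast and macrophage gene, at 183 and 409. All 12 were higher in library 1, beside 54.7% of all genes of at least 1 FPKM. Of the 12, S100a8 and S100a9, given above, averaged 1 FPKM only through library 1, so their direction was fixed by that filter. Among genes whose longest transcript has at most 1000 bases, S100a6, S100a10 and S100a4 included, 88.5% were higher there. Cd9 was 6.41 and 6.69 times above Cd81, the next tetraspanin, at 353 and 388.

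Timp3 and Timp2, inhibitors of matrix proteases, were at 266 and 226 FPKM for Timp3, and 259.7 and 223 for Timp2, and Timp1, the injury-induced member, at 3.99 and 6.01. Igfbp6 led the binding proteins of insulin-like growth factors at 619 and 927, with Igfbp7 at 476 and 482 and Igfbp5 at 193 and 140.0. Tuba1a, at 368 and 383, and Tubb5, at 237 and 207, led the tubulins. Of 12 immediate early genes, which react within minutes to stress and dissection, 11 reached 1 FPKM. Jund was at 70.4 and 58.5, Nr4a1 at 69.6 and 52.5, Zfp36 at 22 and 16.1 and Atf3 at 9.02 and 15.4, while Fos and Egr1 were low at 4.55 and 4.90 for Fos, and 3.59 and 4.02 for Egr1. Egr2 was 20.0 and 12.3 times above Egr1.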
